A study of Danio rerio with 33 samples.

Results

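The genes described here are 10 transcription factor genes that mark regions of the early zebrafish brain: *six3a*, *six3b*, *rx3*, *emx3*, *pax6a* and *pax6b* in the forebrain and eye, *en2a* around the midbrain-hindbrain boundary, and *gbx2*, *egr2b* and *mafba* in the boundary and hindbrain. The members are listed by symbol, and all 10 were found among the 30490 genes of the deposited gene table. The gene *en2a* is listed there under its older symbol *eng2a*. All 10 were among the 22305 genes abundant enough to be tested in embryos.

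Polyadenylated RNA of whole zebrafish embryos at the 10-somite stage was sequenced in 7 groups of 3 biological replicates, 21 of the 33 libraries of the series. Embryos of wild-type genotype had either no injection named, or were injected with 5 pg AP2, 5 pg AP2-P59, 100 pg kctd15, 5 pg AP2 together with 100 pg kctd15, or 5 pg AP2-P59 together with 100 pg kctd15. The last group was kctd15 mutant embryos with no injection named. The labels give neither the AP2 paralog, the form of nucleic acid injected, the change that AP2-P59 carries, nor which of the kctd15 genes is mutated, and they name no embryos injected with a control substance. The other 12 libraries are adult ovary and testis.

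The neural plate is divided along its anterior-posterior axis by transcription factors that are expressed in particular regions. Six3 and Rx proteins act at the anterior end, where forebrain and eyes form. Engrailed and Gbx proteins act around the boundary between midbrain and hindbrain, and Egr2 in particular hindbrain segments, the rhombomeres. The border of the same plate gives rise to the neural crest, where AP2 factors act and which Kctd15 is known to restrict.

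Embryo libraries held 15152199 to 19786714 estimated counts, and the 10 genes had 84 to 2010 estimated counts in a library. Levels are given as CPM, read counts scaled to library size, here after TMM scaling. They are compared between libraries and not between genes, since they are not corrected for transcript length. A RefSeq transcript of *kctd15a*, NM_001006012, was compared across the groups. It had 0 to 34.1 estimated counts in the libraries of embryos with no kctd15 injection and wild-type genotype, and 120.5, 0 and 52.5 in mutant replicates 1, 2 and 3, which had no injection named. It had 201 to 494.9 after kctd15, 273.1 to 730.5 after AP2 with kctd15, and 0, 170.6 and 472.5 in replicates 1, 2 and 3 of AP2-P59 with kctd15. The library labelled AP2-P59 + kctd15 replicate 1 therefore did not show the transcript. Several of the results that use it are also given without it, from the edgeR fit without a replicate block. Values from edgeR with replicate number as a block and from DESeq2 include it. So do the counts, medians and sums of gene lists and the counts of equally numbered pairs. The *kctd15a* gene was at 189 CPM ± 9.3 (SD, n = 3) in mutants and 48.9 ± 8.7 in wild type, so its RNA was not lower in the embryos labelled mutant. In replicates 1, 2 and 3 this gene was at 111.5, 51.8 and 63.3 CPM after kctd15, against 56.5, 50.9 and 39.4 in wild type. After AP2 with kctd15 it was at 65.7, 72.1 and 144.5, against 45.5, 61.4 and 46.5 after AP2. After AP2-P59 with kctd15 it was at 40.7, 44.2 and 116.9, against 42.8, 62.8 and 33.9 after AP2-P59, so replicates 1 and 2 there were not raised. The gonad markers summed to 14.9 to 33.8 CPM in embryos, and all 13 neural progenitor genes and all 10 members were detected. The highest correlation between embryo libraries was 0.9931.

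In edgeR without a replicate block, *en2a* had the smallest adjusted p of the 10 genes for AP2 with kctd15 against AP2. It also did in both averaged kctd15 comparisons. Its mean was 22.9 CPM after AP2 with kctd15 against 13.8 after AP2, and 26.8 CPM in mutants against 18.8 in wild type. The eye field gene *rx3* had its lowest means after AP2-P59 and AP2, 8.99 and 10.5 CPM against 17.4 in wild type. The hindbrain genes *egr2b* and *mafba* had their highest means in mutants. In the edgeR fit without a replicate block, none of these differences passed an adjusted p under 0.05 (quasi-likelihood test, Benjamini-Hochberg adjustment over the 22305 genes), and no member did in any of 11 comparisons. With replicate number as a block, *en2a* passed in both averaged kctd15 comparisons (adjusted p = 0.0377 and 0.0291 in edgeR), where 1.34% and 1.12% of all genes passed. In mutants *egr2b* passed with the block (adjusted p = 0.0091 in edgeR), where 13.1% of all genes did. The pairing of mutants with wild type by replicate number was borderline. For kctd15 against wild type, for AP2-P59 with kctd15 against AP2-P59, for AP2 or AP2-P59 against wild type, for AP2-P59 against AP2 and for both differences between kctd15 effects, the share of all tested genes that passed without the block was 0%. It was 0.197% for AP2 with kctd15 against AP2, 0.525% for the kctd15 effect averaged over the 3 backgrounds, 0.3% for the effect averaged over the AP2 and AP2-P59 backgrounds, and 4.09% for mutants against wild type. At an unadjusted p under 0.05 without the block, members were higher in 3 cases beside AP2 (*rx3*, *pax6a* and *en2a*), against 1.75% of all genes, and in 2 beside AP2-P59 (*rx3* and *en2a*), against 2.01%. In the average over 3 backgrounds 2 were higher (*pax6a* and *en2a*), against 1.96%, in that over AP2 and AP2-P59 4 were (*rx3*, *pax6a*, *pax6b* and *en2a*), against 2.51%, and in mutants 1 was (*en2a*), against 8.59%. Lower members numbered 1 after kctd15 alone (*pax6b*, 1.56% of genes), 3 after AP2 (*rx3*, *pax6b* and *en2a*, 1.39%) and 2 after AP2-P59 (*rx3* and *pax6b*, 2.48%). At the same threshold the kctd15 effect was larger with AP2 than without it for 3 members (*rx3*, *pax6b* and *en2a*, against 0.933%), and 0 members differed between the effect with AP2 and that with AP2-P59, against 2.49%. With the block, which calls more genes in all, 8 members had an unadjusted p under 0.05 for the kctd15 effect with AP2 against that without, all but *six3a* and *emx3* and all positive, against 2.57% of genes higher. The blocked counts were 6 lower after AP2 (*six3b*, *rx3*, *pax6b*, *en2a*, *gbx2* and *egr2b*, against 3.93%) and 3 lower after AP2-P59 (*rx3*, *pax6a* and *pax6b*, against 5.14%), where the numbers did not pair the libraries. They were 2 lower after kctd15 alone (*pax6b* and *gbx2*, 2.99%), 5 higher beside AP2 (*six3b*, *rx3*, *pax6a*, *en2a* and *egr2b*, 3.92%), 3 higher in mutants (*en2a*, *egr2b* and *mafba*, 14%) and 1 higher for the effect with AP2 against that with AP2-P59 (*egr2b*, 2.29%). AP2 against wild type, AP2 with kctd15 against AP2, and the effect with AP2 against that without all use the same AP2 libraries. Their counts are therefore not independent. The 10 members were also chosen with earlier results of these data known. As RNA came from whole embryos, fewer cells of a brain region and less RNA per cell cannot be told apart.

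**Figure D1:**
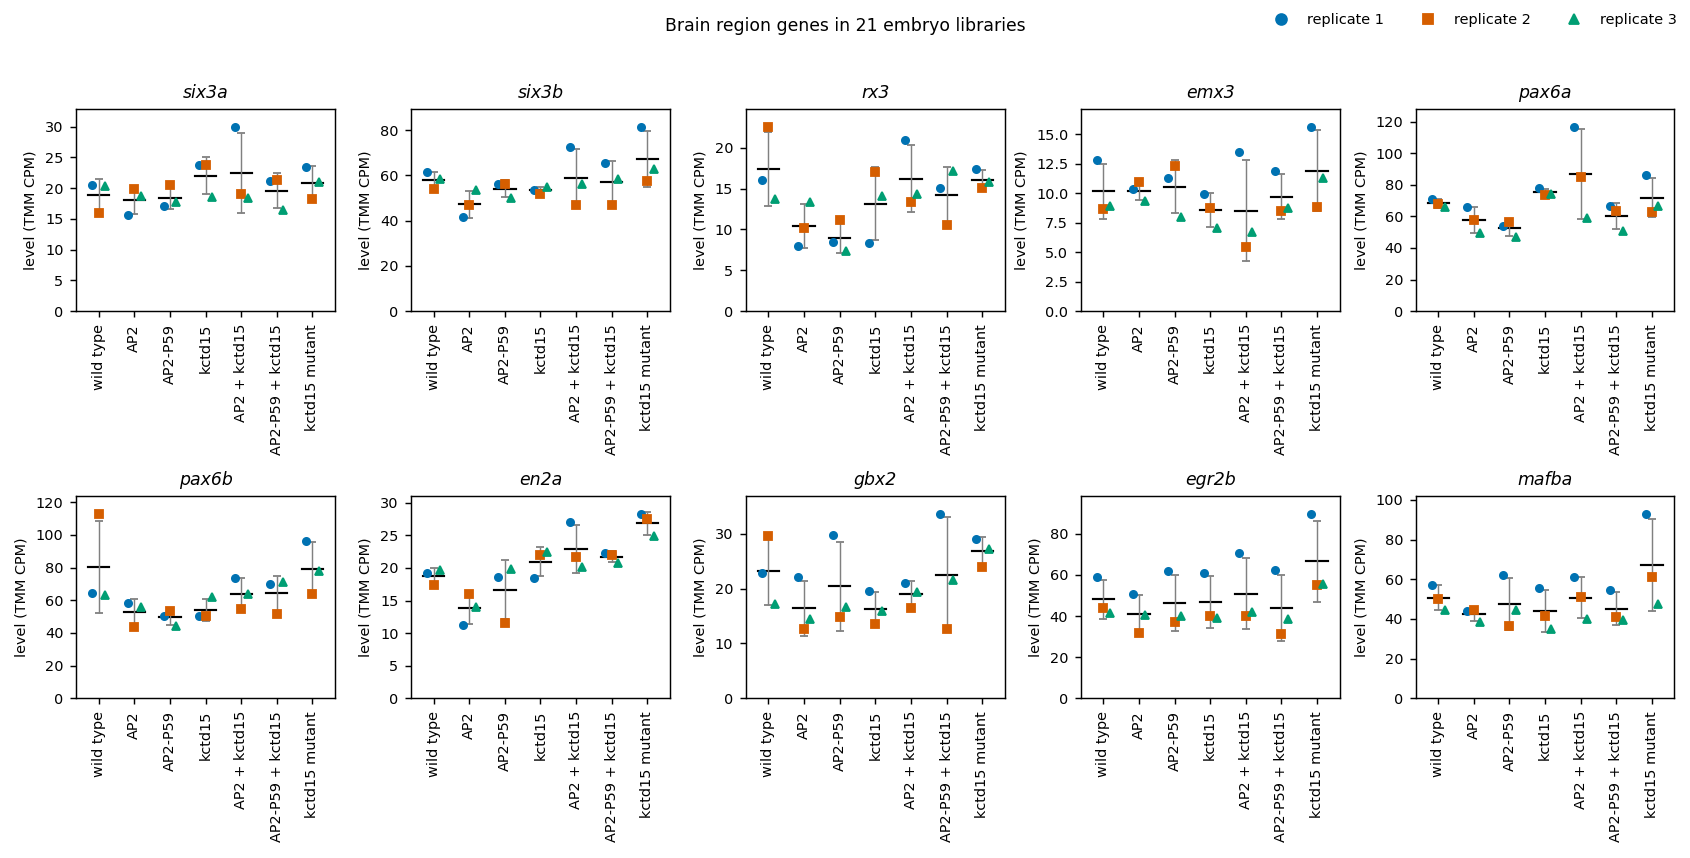
Level of each gene in TMM-scaled CPM (vertical axis, from 0) in 21 embryo libraries of 7 groups (horizontal axis), with replicate number given by colour and shape, black lines for group means and grey bars for SD over 3 libraries. The *en2a* panel shows the mutant libraries at 24.9 to 28.2 CPM, above the wild-type libraries at 17.3 to 19.7, and the *egr2b* panel shows replicate 1 as the highest library of every group.

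Engrailed 2a, from *en2a*, is a homeodomain factor of the midbrain-hindbrain boundary. Its levels were 19.3, 17.3 and 19.7 CPM in wild-type replicates 1, 2 and 3, and 11.3, 16.1 and 14 CPM after AP2. They were 18.6, 11.5 and 19.9 CPM after AP2-P59, and 18.4, 22 and 22.5 after kctd15. The AP2 libraries all lay below the wild-type libraries, while 1 of the AP2-P59 libraries lay far below the others. After AP2 with kctd15 the levels were 27.1, 21.6 and 20.1 CPM, after AP2-P59 with kctd15 they were 22.4, 22 and 20.7, and in mutants they were 28.2, 27.5 and 24.9.

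With AP2 in both groups, kctd15 went with a higher *en2a* level, 22.9 CPM ± 3.7 against 13.8 ± 2.4 (SD, n = 3), and the libraries did not overlap. Of all genes, 3.59% had libraries that did not overlap in this direction. The log2 fold change was 0.73 (SE 0.18), with adjusted p = 0.15 in edgeR and 0.0203 in DESeq2, and the log2 was 0.47 with replicate numbers 2 and 3 only. In edgeR fitted to the compared groups only, adjusted p was 0.75. With AP2-P59 in both groups the levels were 21.7 CPM ± 0.86 against 16.7 ± 4.5, again without overlap, a pattern of 3.82% of genes, with a log2 fold change of 0.38 (SE 0.18) and adjusted p = 1 in edgeR. It was 0.35 without the library labelled AP2-P59 + kctd15 replicate 1, and 0.17 without AP2-P59 replicate 2, the library at 11.5 CPM. Without AP2, kctd15 gave a log2 fold change of 0.16 (SE 0.18), with overlapping libraries.

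Averaged over the 3 backgrounds, the kctd15 effect on *en2a* was a log2 of 0.43 (SE 0.10), the smallest adjusted p among the 10 genes, 0.0845, in edgeR. With replicate number as a block, adjusted p = 0.0377 in edgeR, where 1.34% of all genes passed, and with DESeq2 adjusted p = 0.0121. In edgeR fitted to the compared groups only it was 0.177, and with replicate numbers 2 and 3 only 0.567. Without the library labelled AP2-P59 + kctd15 replicate 1, the log2 was 0.41 and edgeR gave adjusted p = 0.136. Without AP2-P59 replicate 2 the log2 was 0.36. In 8 of 9 pairs of equal replicate number the kctd15-injected library was higher, which 3.3% of all genes showed in at least 8 pairs. In the 6 pairs that also had AP2 or AP2-P59, all 6 were higher, against 3.37% of genes, and the averaged log2 there was 0.56 (SE 0.13, adjusted p = 0.0699 in edgeR). With the block that adjusted p was 0.0291 in edgeR, where 1.12% of genes passed, and with DESeq2 it was 0.00601. It was 0.331 in edgeR fitted to the compared groups only, and 0.588 with replicate numbers 2 and 3 only. Without the library labelled AP2-P59 + kctd15 replicate 1 this log2 was 0.54 and edgeR without the block gave adjusted p = 0.108. Without AP2-P59 replicate 2 it was 0.45. The kctd15 effect with AP2 exceeded that without AP2 by 0.58 (SE 0.26, adjusted p = 1 in edgeR), and by 0.21 with replicate numbers 2 and 3 only.

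Against wild type, *en2a* was at 26.8 CPM ± 1.8 (SD, n = 3) in mutants and 18.8 ± 1.3 in wild type, a log2 of 0.52 (SE 0.18), with adjusted p = 0.111 in edgeR. The libraries did not overlap, as for 12.5% of all genes in that direction. The block gave adjusted p = 0.0532 in edgeR. *en2a* was thus higher in mean both after kctd15 injection beside AP2 and in embryos labelled mutant. The mutant and AP2-with-kctd15 groups held its highest means and AP2 alone its lowest. The gap between those highest means, 3.9 CPM, was just over the larger of their SDs, 3.7, and their libraries overlapped. Against wild type, AP2 gave a log2 of -0.45 (SE 0.18), without overlap and with adjusted p = 1 in edgeR. In that comparison 3.21% of genes had libraries that did not overlap and were lower.

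**Figure D2:**
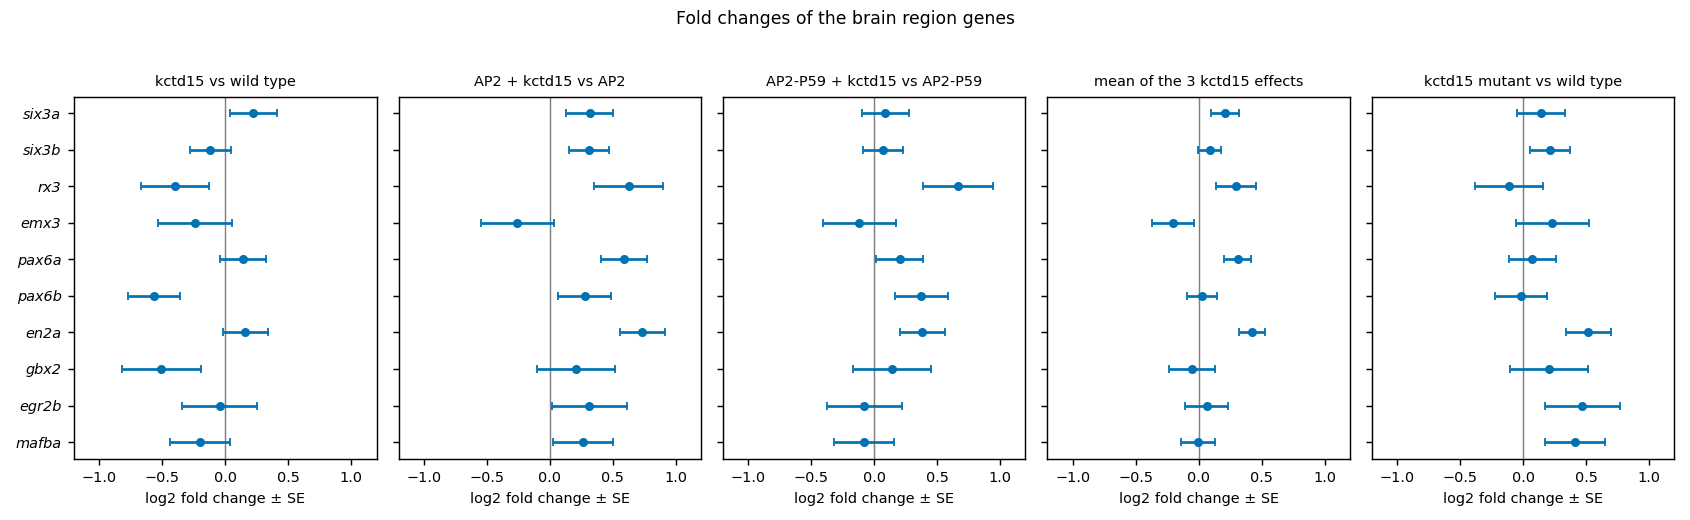
Log2 fold change of each gene with its standard error (horizontal axis) in 5 comparisons, 1 per panel. The point of *en2a* lies at 0.73 beside AP2, 0.38 beside AP2-P59 and 0.52 in mutants, and that of *pax6b* at -0.56 after kctd15 alone.

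The paired box gene *pax6a*, a regulator of eye and forebrain development, had wild-type levels of 71.2, 67.8 and 65.8 CPM. After kctd15 alone its libraries were at 77.9, 73.8 and 73.9 CPM, all above wild type, which 4.22% of genes showed. The log2 fold change was 0.14 (SE 0.18). The levels were 66.2, 57.7 and 49.4 CPM after AP2 and 116, 85 and 59.3 after AP2 with kctd15. They were 54, 56.6 and 46.7 CPM after AP2-P59, below all wild-type libraries with a log2 of -0.38 (SE 0.19, adjusted p = 0.924), and 66.6, 63.4 and 50.7 after AP2-P59 with kctd15. In 9 of 9 equally numbered pairs kctd15 went with a higher level, and 3.3% of all genes were higher in at least 8 of the 9. The averaged log2 was 0.31 (SE 0.11), adjusted p = 0.465 in edgeR, 0.0551 with the block and 0.61 in edgeR without the library labelled AP2-P59 + kctd15 replicate 1.

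Over the AP2 and AP2-P59 backgrounds the averaged *pax6a* log2 was 0.40 (SE 0.13), adjusted p = 0.389 in edgeR and 0.0522 with the block. The log2 of AP2 with kctd15 against AP2 was 0.59 (SE 0.19), adjusted p = 0.434 in edgeR and 0.0524 with the block, and without replicate 1 of AP2 with kctd15, the library at 116 CPM, it was 0.31. Mutants had 86, 62.5 and 66.9 CPM, spanning the wild-type range, with a log2 of 0.07 (SE 0.19).

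**Figure D3:**
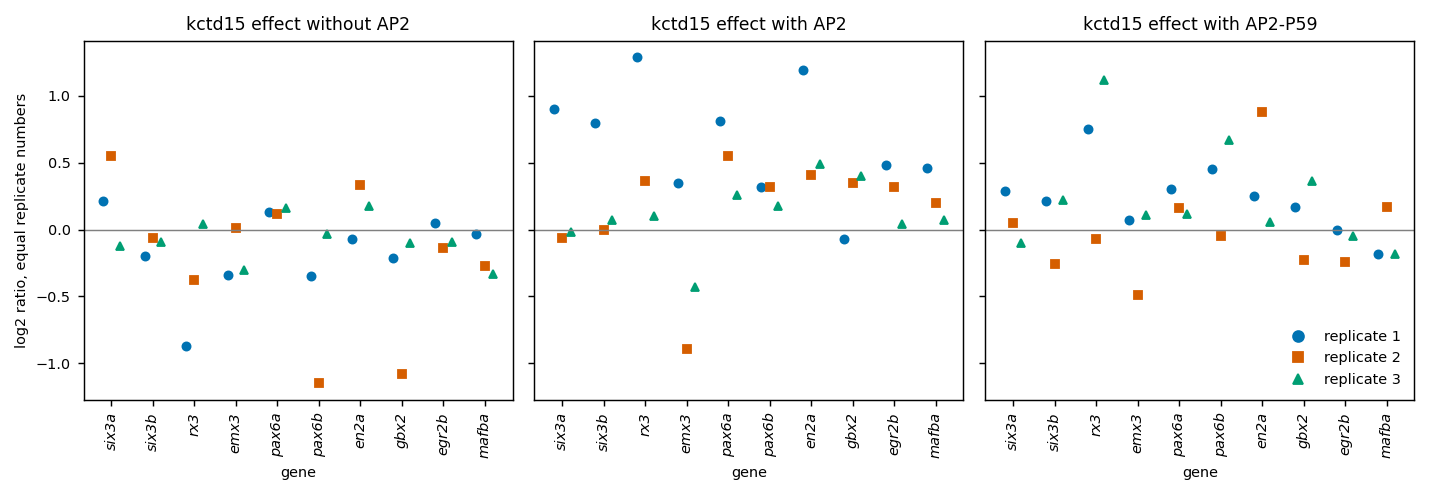
Log2 ratio of kctd15-injected to matching libraries of equal replicate number (vertical axis) for each gene (horizontal axis) in the 3 backgrounds, 1 per panel. All 9 points of *pax6a* lie above 0, and 8 of the 9 of *en2a*.

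The other Pax6 gene, *pax6b*, was at 64.4, 113 and 63.3 CPM in wild type, so replicate 2 stood far above the others. In that library the 13 somite and muscle markers summed to 1154 CPM and the 6 notochord markers to 627, against at least 1740 and 1151 in the other wild-type libraries. AP2 replicate 2 also had the lowest sums of its group, 1267 and 822 CPM, but the lowest *pax6b* level there, 43.5 CPM. The sums of kctd15 replicate 2 were the lowest of its group too, 1585 and 1086 CPM, with *pax6b* at 50.2. The part of these tissues in the *pax6b* values was not tested. After kctd15 alone *pax6b* was at 50.2, 50.2 and 62.1 CPM, below every wild-type library, as 3.56% of genes were. The levels after AP2 were 58.5, 43.5 and 56 CPM, and after AP2-P59 50.7, 53.7 and 44.5 CPM. All 3 injected groups therefore lay below wild type, but they share those wild-type libraries. The log2 fold changes against wild type were -0.56 (SE 0.21), -0.60 (SE 0.21) and -0.69 (SE 0.21) for kctd15, AP2 and AP2-P59, with adjusted p of 1, 1 and 0.86 in edgeR. Without wild-type replicate 2 they were -0.24, -0.28 and -0.37. Beside AP2 and AP2-P59 the averaged kctd15 effect was a log2 of 0.33 (SE 0.15, adjusted p = 0.722), and over the 3 backgrounds it was 0.03 (SE 0.12, adjusted p = 1). Mutants had 96.3, 63.8 and 77.7 CPM, a log2 of -0.02 (SE 0.21, adjusted p = 0.977). The kctd15 effect with AP2 exceeded that without AP2 by 0.84 (SE 0.30, adjusted p = 1), and by 0.52 without wild-type replicate 2.

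The retinal homeobox gene *rx3*, which is needed for the eye field, had 16, 22.5 and 13.7 CPM in wild type. After AP2 it had 7.98, 10.1 and 13.3 CPM and after AP2-P59 8.5, 11.1 and 7.36 CPM, each group wholly below wild type. Libraries below wild type without overlap were found for 3.21% of all genes after AP2 and 4.66% after AP2-P59. The log2 fold changes were -0.73 (SE 0.27, adjusted p = 1) for AP2 and -0.95 (SE 0.28, adjusted p = 0.86) for AP2-P59 in edgeR. Without wild-type replicate 2 they were -0.505 for AP2 and -0.73 for AP2-P59. With kctd15 added, *rx3* was at 20.9, 13.3 and 14.4 CPM beside AP2 and 15, 10.5 and 17.2 beside AP2-P59. Those libraries overlapped their controls, with log2 fold changes of 0.63 (SE 0.27, adjusted p = 0.863; 0.39 without replicate 1 of AP2 with kctd15 and 0.23 with replicate numbers 2 and 3 only) and 0.66 (SE 0.28, adjusted p = 1).

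Averaged over both, the *rx3* effect was 0.65 (SE 0.19, adjusted p = 0.271 in edgeR), 0.62 without the library labelled AP2-P59 + kctd15 replicate 1 and 0.41 with replicate numbers 2 and 3 only. With kctd15 alone the levels were 8.32, 17 and 14.2 CPM and the log2 was -0.40 (SE 0.27). The difference between the effect with AP2 and that without was 1.03 (SE 0.38, adjusted p = 1 in edgeR), and 0.45 with replicate numbers 2 and 3 only. Over the 3 backgrounds the average was 0.30 (SE 0.16, adjusted p = 0.987), and 6 of 9 pairs were higher. Mutants were at 17.4, 15.1 and 15.8 CPM, within the wild-type range, with a log2 of -0.12 (SE 0.27).

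The Six3 factors repress posterior fate in the anterior neural plate. The gene *six3a* had 20.5, 16 and 20.3 CPM in wild type and a group mean between 18.1 and 22.5 CPM in every group. Its averaged kctd15 effect was a log2 of 0.21 (SE 0.11, adjusted p = 0.972), and 0.05 with replicate numbers 2 and 3 only. Its mutant difference was 0.14 (SE 0.19, adjusted p = 0.727). A single library, AP2 with kctd15 replicate 1, reached 29.9 CPM. The gene *six3b* had 61.4, 54.1 and 58.4 CPM in wild type and 41.4, 47 and 53.4 after AP2, all below wild type, with a log2 of -0.29 (SE 0.16, adjusted p = 1; -0.16 with replicate numbers 2 and 3 only). Its averaged kctd15 effect was 0.09 (SE 0.09, adjusted p = 1), and mutants were at 81.3, 57.4 and 62.9 CPM, a log2 of 0.21 (SE 0.16, adjusted p = 0.492; 0.10 with replicate numbers 2 and 3 only). The pairs *six3a* with *six3b* and *pax6a* with *pax6b* are paralogs whose reads the authors' counting could divide, so the split within each pair is uncertain.

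The telencephalic gene *emx3* was the least abundant in counts, at 84 to 266 estimated counts in a library. It had 12.9, 8.68 and 8.92 CPM in wild type and 13.5, 5.45 and 6.68 after AP2 with kctd15. Its averaged kctd15 effect had the opposite sign to that of *en2a*, a log2 of -0.21 (SE 0.17, adjusted p = 1; -0.38 with replicate numbers 2 and 3 only), with 4 of 9 pairs higher. In mutants its levels were 15.6, 8.81 and 11.3 CPM, a log2 of 0.23 (SE 0.29, adjusted p = 0.712).

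Of the hindbrain genes, *gbx2*, which patterns the anterior hindbrain, was at 22.9, 29.7 and 17.1 CPM in wild type and 29.2, 24 and 27.2 in mutants. Its lowest group mean followed kctd15 alone, 16.3 CPM ± 3.1 (SD, n = 3). The averaged kctd15 effect was a log2 of -0.05 (SE 0.18, adjusted p = 1), and the mutant difference 0.21 (SE 0.31, adjusted p = 0.765; 0.14 with replicate numbers 2 and 3 only). Within AP2-P59 with kctd15 its 3 libraries ran from 12.6 to 33.6 CPM, the widest range of the gene.

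The gene *egr2b*, also called krox20, is expressed in alternating rhombomeres. Its levels were 59, 44 and 41.7 CPM in wild type and 89.5, 54.9 and 55.8 CPM in mutants. Those ranges overlap, and the log2 was 0.47 (SE 0.30, adjusted p = 0.402 in edgeR). With replicate number as a block, the log2 was 0.44 (SE 0.10) and adjusted p = 0.0091 in edgeR, where 13.1% of all genes passed. The ratios of equal number were 0.59, 0.31 and 0.41 on the log2 scale, so each mutant library exceeded the wild-type library of its number, while without mutant replicate 1 the unblocked log2 was 0.21. The case for pairing mutants with wild type is borderline. The lowest correlation of deviations was 0.12, and it dropped to 0.06 with a smaller offset before the log, a prior count of 2. The averaged kctd15 effect was 0.06 (SE 0.17, adjusted p = 1).

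The hindbrain gene *mafba* had 57.1, 50.3 and 44.6 CPM in wild type, 44.1, 44.6 and 38.3 after AP2, all below wild type but with the nearest libraries equal after rounding, and 92.7, 61.2 and 47.7 in mutants. The mutant log2 was 0.41 (SE 0.24, adjusted p = 0.353 in edgeR, 0.0658 with the block) and 0.11 without mutant replicate 1. Its averaged kctd15 effect was -0.005 (SE 0.14, adjusted p = 1), and AP2 against wild type gave -0.26 (SE 0.24, adjusted p = 1).

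Taken by comparison, 9 of the 10 genes had a positive log2 fold change for AP2 with kctd15 against AP2, with a median of 0.31, while the median over all genes was 0.01. The 10 genes summed to 507.1, 353.6 and 340.1 CPM in replicates 1, 2 and 3 of AP2 with kctd15, and to 328.2, 294.2 and 307.6 after AP2. For kctd15 alone 3 were positive and the median was -0.16, and for AP2-P59 with kctd15 against AP2-P59 7 were positive with a median of 0.11. Against wild type, 9 of the 10 were negative after AP2 and 9 after AP2-P59, comparisons that share the wild-type libraries. The AP2 libraries, which held the lowest mean of *six3a*, *six3b*, *en2a*, *egr2b* and *mafba*, are also the reference for AP2 with kctd15. In mutants 8 were positive with a median of 0.21, against an all-gene median of -0.01. Non-overlapping libraries that were lower were found for 5 members after AP2 (*six3b*, *rx3*, *pax6b*, *en2a* and *mafba*) against 3.21% of all genes, and for 3 after AP2-P59 against 4.66%. The AP2-P59 and AP2 groups had 0 members without overlap between them, against 2.29% of genes higher and 2.47% lower, and 0 of the 10 had an unadjusted p under 0.05 there, against 1.31%. In the order of group means, neighbouring groups overlapped for all 10 genes, and the gap between them exceeded the larger SD in 3 cases (*six3b*, *pax6b* and *en2a*). The mutant group had the highest mean of 6 genes: *six3b*, *emx3*, *en2a*, *gbx2*, *egr2b* and *mafba*.

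Replicate 1 libraries held the highest level of *egr2b* in 7 of 7 groups, which 6.01% of all genes did. *pax6a*, *gbx2* and *mafba* were highest in replicate 1 in 6 of 7 groups, against 12.2% of genes with at least 6. The mean log2 deviation of replicate 1 from its group was 0.43 for *egr2b*, 0.32 for *gbx2*, 0.30 for *mafba* and 0.29 for *emx3*. It was 0.02 for *en2a* and -0.06 for *rx3*. What sets replicate 1 apart was not tested.

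**Figure D4:**
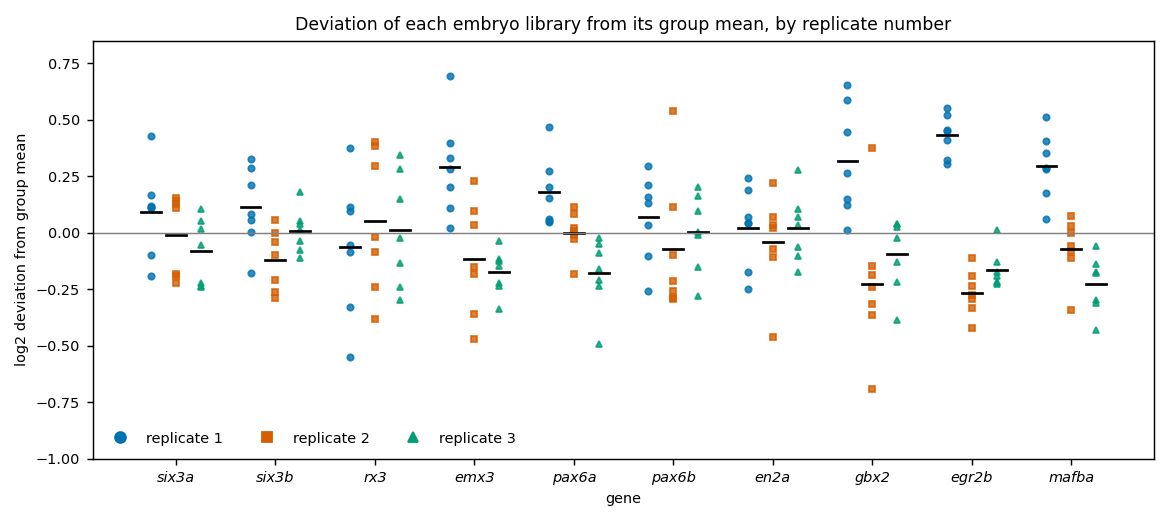
Log2 deviation of each library from its group mean (vertical axis) for each gene (horizontal axis), by replicate number, with black lines for the mean over 7 groups. Replicate 1 lies above 0 in all 7 groups for *egr2b*, with a mean of 0.43.

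Over the 21 libraries, which share replicate numbers and processing, the closest pairs among the 10 were *egr2b* with *mafba* (Pearson r = 0.86 of log2 CPM), *rx3* with *pax6b* (0.77) and *gbx2* with *egr2b* (0.77). The paralogs were less alike, with 0.52 for *six3a* and *six3b* and 0.37 for *pax6a* and *pax6b*. Among 10535 other named genes, the nearest to *rx3* was *rx2* (0.84, and 0.71 within groups), also a retinal homeobox gene. The nearest to *six3a* was the forebrain gene *foxg1a* (0.83). Nearest to *emx3* were *znf385a* (0.89) and *tp63* (0.88), to *six3b* *usp54a* (0.88), to *pax6b* *hnrnpul1* (0.85) and to *pax6a* *asf1bb* (0.78). For *egr2b* the nearest genes were *mycla* (0.97), *etv4* (0.96) and *sox2* (0.95), and for *gbx2* it was *phf6* (0.91).

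Other regional genes of the brain were counted in 3 lists, chosen with earlier results of these data known. Of 26 other forebrain and eye genes, 0 passed in any comparison, 21 had a positive log2 for AP2 with kctd15 against AP2 and the median was 0.17. Their sums in replicates 1, 2 and 3 were 721.2, 463.3 and 484.6 CPM after AP2 with kctd15, and 519.5, 435.4 and 500.8 after AP2. The nuclear receptor gene *nr2e1* was at 18.7 CPM ± 3.1 after AP2 with kctd15 against 11.7 ± 1.8 after AP2 (adjusted p = 0.208). Of 19 other midbrain and boundary genes 14 were positive, with a median of 0.20, and *eng2b*, the paralog of *en2a*, was at 43.4 CPM ± 10 against 28.8 ± 2.7 (adjusted p = 0.896). The repressor gene *her5* was at 15.2 CPM ± 6.3 against 8.09 ± 2.7 (adjusted p = 0.747). Of 18 other hindbrain genes 16 were positive, with a median of 0.18, and *cyp26b1*, which degrades retinoic acid, was at 27.6 CPM ± 0.93 against 19.8 ± 1.2 (adjusted p = 0.697). Beside AP2-P59 the medians of the forebrain, midbrain and hindbrain lists were 0.17, 0.12 and 0.01, with 9 of 18 hindbrain genes positive. These values include the library labelled AP2-P59 + kctd15 replicate 1, which did not show the *kctd15a* transcript. For kctd15 alone the medians were 0.06, -0.04 and -0.02.

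In mutants the midbrain and boundary genes had a median log2 of 0.31, with 16 of 19 positive and 0 passing. The boundary gene *pax2a* was at 92.6 CPM ± 9.8 against 72.1 ± 9 (adjusted p = 0.117). Of the hindbrain genes 12 of 18 were positive, with a median of 0.26. A single one passed, where 4.09% of all genes did. That gene, *mafbb*, the paralog of *mafba*, fell from 23.4 CPM ± 5.5 in wild type to 11.6 ± 2.1 in mutants, a log2 of -1.01 (adjusted p = 0.0231 in edgeR). With the block the log2 of *mafbb* was -0.99 (adjusted p = 0.00107 in edgeR), with DESeq2 -1.01 (0.00307), and with replicate numbers 2 and 3 only -1.21 (0.0891 in edgeR). Without wild-type replicate 3, mutant replicate 2 or mutant replicate 3 the log2 was -0.81, -0.99 and -0.89, and *mafbb* no longer passed in edgeR (adjusted p = 0.122, 0.0914 and 0.133). In mutants and wild type *mafba* was at 67.2 CPM ± 23 and 50.6 ± 6.3. How reads divide between these paralogs is an estimate.

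**Figure D5:**
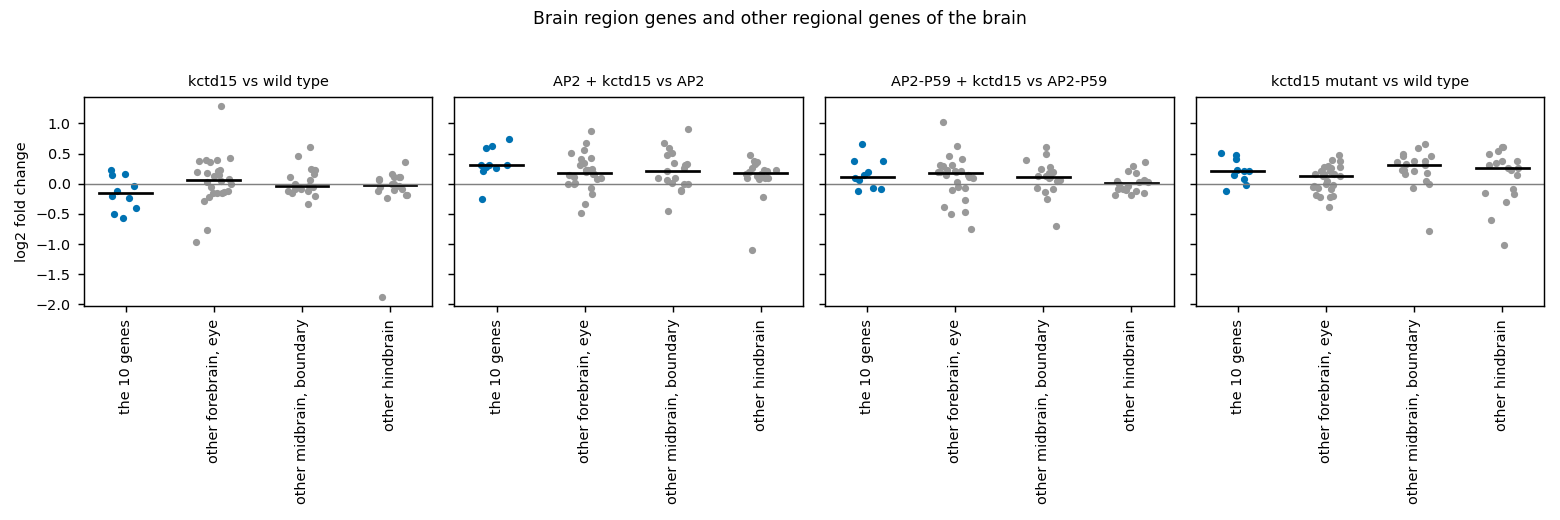
Log2 fold change (vertical axis) of the 10 genes and of the other forebrain and eye, midbrain and boundary, and hindbrain genes (1 point per gene, horizontal jitter for visibility, black lines for medians) in 4 comparisons. Beside AP2 the median was 0.31 for the 10 genes, and in mutants the midbrain and boundary genes had a median of 0.31.

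Markers of neighbouring tissues, in lists chosen with earlier results of these data known, moved in the same comparisons. For AP2 with kctd15 against AP2, where 0.197% of all genes passed, 11 of the 12 neural crest genes were negative, with a median log2 of -0.94. Of these, 3 passed as lower (*pdgfra*, *crestin* and *snai1b*), and the 12 summed to 663 to 824 CPM against 925 to 1037 after AP2. The 10 epidermal genes, 8 of them negative, summed to 10430 to 13710 CPM against 15760 to 20780. Of the 10, 3 passed as lower (*krt17*, *krt92* and *cyt1l*) and 1 as higher (*krt97*). The 13 neural progenitor genes were all positive, with a median of 0.33 and sums of 2424 to 2978 CPM against 2032 to 2604, and 0 passed. For AP2-P59 with kctd15 against AP2-P59, with the library labelled replicate 1 included, 8 of these 13 were positive, with a median of 0.02. In mutants 10 of 10 epidermal genes were positive and 3 passed as higher, where 4.09% of all genes passed. Their sums were 21430 to 30110 CPM against 15480 to 19300 in wild type. After AP2 against wild type, 11 of the 13 neural progenitor genes were negative, with a median of -0.22, and 0 passed. In the average over 3 backgrounds 11 of 12 crest genes were negative and 6 passed as lower, where 0.525% of all genes passed. In mutants 13 of 14 neuronal genes were positive, with a median of 0.30 and 0 passing. With kctd15 added, 4 of the 14 were positive beside AP2 (median -0.1) and 1 beside AP2-P59 (median -0.24). The part of these tissues in the values of the brain region genes was not tested.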

How the data were processed

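RNA was extracted from whole embryos and gonads, made into stranded libraries, trimmed with Trimmomatic 0.36 and quantified against GRCz10 with kallisto 0.43.0, per the labels' protocols and the submitters' processing notes, which also name edgeR. The deposited gene and transcript tables hold estimated counts from the authors' quantification. The deposited normalized table holds a signal, CPM on the effective library size, and was used as an alternative and for gonad levels. No coordinates or sequences are given.

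Estimated counts were rounded and fitted with edgeR 4.0.16 in R 4.3.3: all 21 embryo libraries in 1 fit, TMM, filterByExpr (minimum count 10, minimum total 15), robust quasi-likelihood tests, Benjamini-Hochberg adjustment over all genes, threshold 0.05. The script was tested on simulated data. SE is the log2 fold change divided by the square root of F. Pearson correlations used log2(CPM + 1) over genes averaging 5 CPM or more. Replicates are separate biological samples per the labels. The 10 members, the lists and the rule for named genes were chosen with earlier results of these data known. The rule names all 10 genes, with folds and tests wherever the unadjusted p was under 0.05 or libraries did not overlap, and for all 10 in the averaged kctd15 and mutant comparisons, plus up to 4 genes of each other brain list and 3 like genes per member, of which some are not reported here.

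To see whether replicate numbers pair the samples, deviations from group means were correlated between equally numbered libraries. Every correlation was above 0.1 in all comparisons of 2 groups but AP2-P59 against wild type. For mutants the lowest was 0.12 and fell to 0.06 with a prior count of 2. The library's own number matched best for 20 of 21 libraries. Alternatives were RLE factors, no filter, the replicate block, DESeq2 1.42.0, limma 3.58.1 trend on the deposited CPM, the compared groups only, each library left out and, chosen after seeing the data, replicate numbers 2 and 3 only.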

Additional observations from a re-analysis of the deposited data

Results flagged for a closer look

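The gonad libraries enter none of the embryo comparisons, and some held signal for the brain region genes above the limit that a count of 0 allows: wild-type ovary for 3 of the 10 genes and wild-type testis for all 10. In wild-type ovary the mean deposited CPM was 1.47 for six3a, 1.09 for gbx2 and 44.5 for mafba (libraries from 18.3 to 86.4). In wild-type testis it was 4.87 for six3a, 3.32 for six3b, 0.563 for rx3, 1.39 for emx3, 16.6 for pax6a, 0.716 for pax6b, 3.61 for en2a, 0.654 for gbx2, 1.24 for egr2b and 24.2 for mafba. Mutant gonads, not listed above, held signal too. For example, mafba had a mean of 28.2 in mutant ovary and 10.4 in mutant testis, and pax6a 16.3 in mutant testis. Deposited CPM are scaled by another factor than the embryo levels of the report, and the source of this signal was not tested.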

How the results depend on the processing

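No member passed in the edgeR fit without a block, and none did with RLE factors, without a filter, with limma-trend, in the compared groups only or with replicate numbers 2 and 3 only. With the replicate block 1 member passed in each of 3 comparisons: en2a in both averaged kctd15 comparisons (adjusted p = 0.0377 and 0.0291 in edgeR) and egr2b in mutants (0.0091). With DESeq2 1 member, en2a, passed beside AP2 (adjusted p = 0.0203) and in both averages (0.0121 and 0.00601). The block and DESeq2 also called more genes overall: beside AP2 143 and 150 against 44, averaged over 3 backgrounds 298 and 231 against 117, over AP2 and AP2-P59 250 and 212 against 67, and in mutants 2931 and 1661 against 912. Fitting only the compared groups called 0 genes beside AP2 and 12 over AP2 and AP2-P59. Leaving out 1 library gave 2 genes (without AP2 with kctd15 replicate 2) to 32 beside AP2, up to 114 over AP2 and AP2-P59 (without the library labelled AP2-P59 + kctd15 replicate 1) and 263 (without mutant replicate 3) to 756 in mutants, and 0 members in every refit. Where no gene passed, unadjusted p was under 0.05 for 763 (kctd15), 906 (AP2-P59 with kctd15), 745 (AP2), 1199 (AP2-P59), 292 (AP2-P59 against AP2), 555 and 652 genes (differences of effects). DESeq2 called 16, 16, 0, 11, 0, 0 and 0 there, limma-trend 1 for kctd15 and 0 elsewhere, and the block 12, 13, 1, 0, 1, 0 and 0. Signs turned for pax6b in mutants with limma-trend (log2 0.026), and with replicate numbers 2 and 3 only for six3b (-0.020), pax6b (-0.029) and egr2b (-0.032) in the 3-background average and pax6a in mutants (-0.041). Over refits without 1 library the 3-background average of pax6b ran from -0.020 to 0.134, gbx2 from -0.191 to 0.072, egr2b from -0.053 to 0.152 and mafba from -0.073 to 0.073. In mutants rx3 ran from -0.263 to 0.117, emx3 from -0.006 to 0.442, pax6a from -0.069 to 0.168 and pax6b from -0.170 to 0.313. The cause was not tested.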
